A study of Mus musculus with 10 samples.

Results

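Transcripts of 9 interleukin-1 family genes were examined in RAW264.7 cells, a mouse macrophage line. They were Il1a, Il1b, Il1f6 (Il36a), Il1f9 (Il36g), Il18 and Il33, which encode ligands, Il1rn and Il18bp, which encode secreted inhibitors, and Il1rap, which encodes a receptor chain. The genes were picked by symbol among 43432 Ensembl genes with deposited read counts, and all 9 were among the 14172 genes with enough counts to be tested. RNA came from 5 conditions with 2 libraries each. These were DMSO (0.5%) alone, DMSO plus 1 µg/mL LPS, called DMSO + LPS or the LPS controls, and compound **1**, an unsaturated fatty acid with a keto group (the E isomer of 9-keto-hexadec-7-enoic acid), at 32, 10 or 3.2 µM with the same LPS. Cells were given compound or solvent 1 h ahead of LPS, and their RNA was harvested after 12 h. No group received **1** without LPS, all groups are of 1 cell line, and the replicates are named biological replicates without a statement that they were separate cultures, so p-values measure the spread between these libraries.

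The interleukin-1 family is a set of cytokines that act early in inflammation. IL-1α and IL-1β share 1 receptor, IL-36α and IL-36γ share another, and IL-33 and IL-18 each have their own, and the receptors for IL-1, IL-33 and IL-36 all pair with the accessory chain encoded by Il1rap. Signals then pass through MyD88 and IRAK kinases. IL-1β and IL-18 are made as precursors that caspase-1 cuts inside inflammasomes. The IL-1 receptor antagonist (Il1rn) occupies the IL-1 receptor without signaling, and IL-18 binding protein (Il18bp) captures free IL-18. In macrophages LPS, a component of Gram-negative bacterial walls, is a classical inducer of the IL-1 transcripts.

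Of the 9 genes, 5 lie on chromosome 2 in 2 groups (GENCODE M21, GRCm38). Il1f9 (chr2:24186476-24193568), Il1f6 (chr2:24215418-24225702) and Il1rn (chr2:24336853-24351494) are on the plus strand. Il1a (chr2:129299610-129309972) and Il1b (chr2:129364570-129371139) are on the minus strand. The others are Il18 (chr9:50554827-50581840, plus strand), Il18bp (chr7:102014885-102018690, minus strand), Il33 (chr19:29925114-29960718, plus strand) and Il1rap (chr16:26581704-26730117, plus strand). Promoter windows from RefSeq (GRCm38.p6), 250 bases before to 50 after a transcription start, were found for 8 of the 9 genes and not for Il1f6. The windows of Il1a (chr2:129309923-129310222, minus strand) and Il1b (chr2:129371090-129371389, minus strand) are shown because these neighbors moved together in the data, and that of Il1f9 (chr2:24186226-24186525, plus strand) because this gene moved the other way. Capitals mark TATAAA, and the sequences run 5′ to 3′ on the gene's strand.
Il1a: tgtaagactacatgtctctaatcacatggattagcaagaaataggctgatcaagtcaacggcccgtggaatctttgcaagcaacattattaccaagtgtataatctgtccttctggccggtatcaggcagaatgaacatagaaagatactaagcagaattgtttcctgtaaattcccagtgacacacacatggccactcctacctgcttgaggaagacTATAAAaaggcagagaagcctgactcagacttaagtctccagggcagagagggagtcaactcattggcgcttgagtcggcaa
Il1b: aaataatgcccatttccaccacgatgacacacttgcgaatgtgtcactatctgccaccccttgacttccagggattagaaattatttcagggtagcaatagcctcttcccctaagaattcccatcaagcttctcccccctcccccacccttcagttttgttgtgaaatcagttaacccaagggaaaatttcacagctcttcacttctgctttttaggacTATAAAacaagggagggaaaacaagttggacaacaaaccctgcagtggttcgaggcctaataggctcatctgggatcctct
Il1f9: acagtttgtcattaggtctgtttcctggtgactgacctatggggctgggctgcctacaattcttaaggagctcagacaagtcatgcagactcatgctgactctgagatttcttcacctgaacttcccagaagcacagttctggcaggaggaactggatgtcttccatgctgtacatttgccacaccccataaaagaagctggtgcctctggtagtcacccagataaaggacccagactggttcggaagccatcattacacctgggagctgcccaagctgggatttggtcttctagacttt
TATAAA began 32 bases before the start of Il1a, 31 before that of Il1b and 29 before the start in 1 of the 2 windows of Il33 (chr19:29945540-29945839, plus strand). Among all 32817 windows, 13.6% held TATAAA on either strand, and 2% held it on the gene's strand between 40 and 20 bases before the start. The searches covered 7 motifs on both strands, and a match or its absence describes these letters only. The κB motif (8.46% of all windows), TGACG (a CRE core, 20.8%) and TGACNNNGC (antioxidant response core, 12.4%) had no match in any window of the 8 genes. TGANTCA (AP-1, 7.81%) matched in Il1a and Il1rn, TTGCNNAA (C/EBP, 10.8%) in Il18bp and Il33, and the ISRE core motif (3.43%) in Il1rap. TATAAA also matched once in Il18, in the other window of Il33 and in a window of Il1rn, outside that stretch. The Il1f9 window matched none of the 7. Matches of TGANTCA in Il1a and of TATAAA do not overlap.

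Library totals were 45966803 to 58976377 counts. CPM are read counts scaled by TMM-adjusted library totals, and a gene at 5 CPM corresponds to 226 to 294 counts. A gene was called when edgeR's quasi-likelihood test gave a Benjamini-Hochberg adjusted p below 0.05 over all tested genes and a change of at least 1.5-fold. All 10 macrophage markers examined were expressed. Both 32 µM libraries lay below both LPS controls for 6 of them (24.3% of all tested genes) and above for 1 (25.7% of all tested genes), and 3 overlapped, with no test applied. Fcgr1 had 55.7 and 55.4 CPM in the LPS controls and 18.6 and 15.5 CPM with 32 µM, Itgam 458 and 425 against 277 and 277, Lyz2 4093 and 4160 against 2828 and 2585, Cd14 3261 and 3362 against 2552 and 2545, and Adgre1 264 and 247 against 204 and 207. Spi1 was the other lower marker, and Csf1r, at 822 and 805 against 1095 and 1047 CPM, the higher one. Their part in the results at 32 µM was not tested. Fewer cells of a type and less RNA per cell cannot be told apart in such samples. Replicate 1 at 10 µM and replicate 1 at 3.2 µM stood apart, since the epithelial genes Epcam, Krt8, Krt18 and Cdh1 summed to 38.2 and 5.78 CPM there and to at most 0.0850 CPM in the other 8 libraries. Fibroblast markers (Col1a1, Col1a2 and Pdgfra) summed to 2.94 CPM in replicate 1 at 10 µM and to at most 0.367 CPM elsewhere, and the neutrophil gene Ly6g had 39 counts there and at most 5 elsewhere. The other neutrophil genes examined did not stand apart in that library, with 0 counts for Elane and 5 for Mpo. Replicate 2 at 32 µM also stood apart, with 2.46% of its counts on Gm42418, a gene overlapping ribosomal RNA sequence, against 0.0419% to 0.207% elsewhere. Without replicate 1 at 10 µM, 3 family genes instead of 4 and 97 instead of 122 tested genes were called at that dose. Without replicate 2 at 32 µM, 6 family genes instead of 8 and 515 instead of 591 tested genes were called there. Without any other 1 of the 4 libraries compared at each dose, as many family genes were called as in these fits. The number called over all tested genes varied more between the fits than that of the family. Leaving out both libraries holding epithelial transcripts was a choice made after seeing the data. Fewer genes were then called at 10 µM and between 10 and 32 µM, both in the family and over all tested genes. The family still had no call at 3.2 µM.

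The first comparison asked how the family responded to LPS alone. LPS raised 8 of the 9 genes, against 14.6% of all tested genes called higher and 13.6% called lower. Of these 8, Il1a, Il1f6, Il1f9 and Il33 had at most 4 counts in a DMSO library. They had enough counts to be tested only through LPS libraries, so a rise was favored in advance. The median of the 9 log2 fold changes was 7.62, the value of Il33, which stayed below 1 CPM. With the genes absent from DMSO set at their lower bound it was 4.24, again that of Il33. The median over all tested genes was 0.00. Both LPS libraries lay above both DMSO libraries for each of the 9 genes, and for 38.2% of all tested genes.

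Among the ligands, Il1b, the main secreted IL-1, had 1.16 and 1.15 CPM in DMSO and 1529 and 1541 CPM in the LPS controls, which gave a log2 fold change of 10.38 ± 0.07 (SE, adjusted p = 5.23e-11). Il1a, whose product also acts from the cell surface and nucleus, had 1 count in each DMSO library and 23019 and 18458 counts in the LPS controls. Over both libraries this is a ratio of 22996 with an exact counting interval of 6366 to 189891. Both IL-1 genes thus went from near the limit of detection, or close to 1 CPM, to at least 393 CPM.
Il1f6 had 0 counts in DMSO and 591 and 489 in the LPS controls, at least 399-fold higher when the absent group is set at 3 counts. Il1f9, which like Il1f6 encodes an IL-36 receptor agonist, rose from 4 and 3 counts to 1877 and 1572, or 33.1 ± 0.49 CPM (SD, n = 2). This gave a log2 fold change of 9.04 ± 0.14 (SE, adjusted p = 3.21e-09). Il33, an alarmin held in the nucleus, had 0 counts in DMSO and 29 and 22 in the LPS controls, at least 18.9-fold higher. It stayed below 1 CPM in every library.
Il18 was already present in DMSO, at 5.76 and 5.73 CPM. It reached 9.75 and 10.3 CPM with LPS, a log2 fold change of 0.80 ± 0.08 (SE, adjusted p = 8.05e-05), the smallest among the 8 called genes.

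Among the inhibitors, Il1rn was the member with the most counts in every library. It had 178 and 170 CPM in DMSO and 2286 and 2241 CPM in the LPS controls, which gave a log2 fold change of 3.70 ± 0.05 (SE, adjusted p = 1.54e-09). Il18bp rose from 0.595 and 0.652 CPM to 2.11 and 2.32 CPM, a log2 fold change of 1.83 ± 0.17 (SE, adjusted p = 5.30e-05). It overlaps Numa1 on the opposite strand, which had up to 15903 counts and fell by 1.09 on the log2 scale with LPS, and whether the counting used strand is not given in the sources used here. Reads of these genes cannot be told apart if it did not.
Il1rap had 16.2 and 18.4 CPM in DMSO and 25.1 and 24.1 CPM in the LPS controls. Its log2 fold change of 0.51 ± 0.10 (SE, adjusted p = 0.00268) was below the 1.5-fold cutoff.

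**Figure D1:**
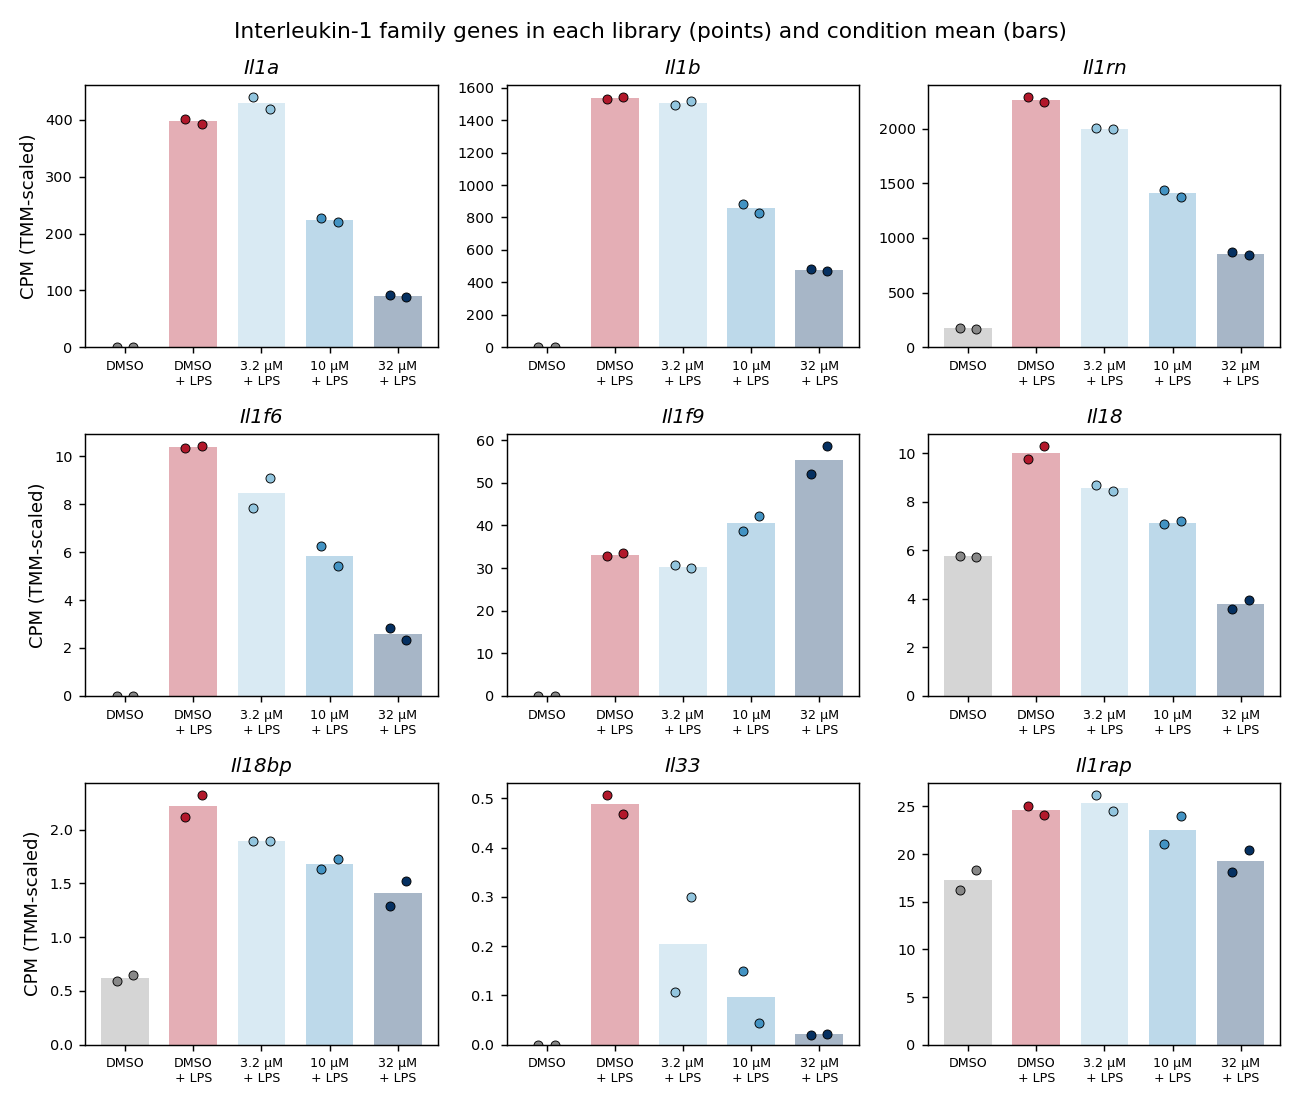
CPM of the 9 genes in each of the 10 libraries (points) with the mean of each condition (bars, n = 2), on linear axes that start at 0 and differ between panels. Il1f9 was the only gene of the 9 with its highest level at 32 µM, 52.1 and 58.6 CPM, and Il18 was the only one with both 32 µM libraries (3.60 and 3.96 CPM) below both DMSO libraries.

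Relative to summed exon length, the order after LPS was Il1b (805 ± 4.5 CPM per kb, SD, n = 2), Il1rn (409 ± 5.7), Il1a (201 ± 3.2), Il1f9 (20.1 ± 0.30), Il1f6 (11.7 ± 0.074), Il18 (9.71 ± 0.37), Il1rap (2.16 ± 0.059), Il18bp (0.733 ± 0.049) and Il33 (0.169 ± 0.0093). The libraries of neighbors in this order did not overlap. In DMSO the order was led by Il1rn (31.5 ± 0.99 CPM per kb), followed by Il18 (5.57 ± 0.026), Il1rap (1.52 ± 0.13) and Il1b (0.603 ± 0.0041). At 32 µM it again began with Il1b (249 ± 3.4 CPM per kb), Il1rn (155 ± 4.0), Il1a (45.4 ± 1.3) and Il1f9 (33.6 ± 2.8), while Il18 (3.66 ± 0.25) and Il1f6 (2.91 ± 0.40) had changed places relative to DMSO + LPS.

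The next comparisons asked what **1** did to these transcripts under LPS. At 32 µM, 7 genes were called lower and 1 higher, against 2.91% of all tested genes called lower and 1.26% called higher. Il33, among the 7, had enough counts to be tested only because of the LPS controls, where it was highest, which favors a fall. The median log2 fold change of the 9 genes was −1.41, and that of all tested genes was 0.01. At 10 µM, 4 genes were called lower (0.579% of all tested genes) and 0 higher (0.282% of all tested genes), with a median of −0.68 against 0.02. At 3.2 µM edgeR called 0 of the 9, and 0% of all tested genes in either direction, while 600 genes had an unadjusted p below 0.05, fewer than the 709 that make up 5% of the tested genes. DESeq2 called 1 gene over all tested genes at that dose, edgeR on the 4 libraries compared called 66, and neither called a family gene. The doses share the DMSO + LPS libraries.

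Il1a and Il1b fell at both upper doses. Il1a had 402 and 393 CPM in the LPS controls, 440 and 419 with 3.2 µM, 227 and 219 with 10 µM and 91.4 and 87.7 with 32 µM. The log2 fold change was −0.83 ± 0.05 at 10 µM (SE, edgeR adjusted p = 2.20e-04) and −2.15 ± 0.05 at 32 µM (adjusted p = 4.07e-07). The 3.2 µM libraries lay above both LPS controls, by 0.11 ± 0.05 on the log2 scale, which did not pass the test (edgeR adjusted p = 0.999).
Il1b had 1492 and 1519 CPM with 3.2 µM, 886 and 829 with 10 µM and 480 and 471 with 32 µM, against the 1529 and 1541 CPM of the LPS control. The log2 fold change was −0.84 ± 0.04 at 10 µM (SE, edgeR adjusted p = 1.63e-04) and −1.69 ± 0.04 at 32 µM (adjusted p = 5.43e-07). At 3.2 µM it was −0.03 with a 95% confidence interval of −0.13 to 0.07.
Both IL-1 genes overlap an antisense or processed transcript. Il1bos, antisense to Il1b, had 1 to 135 counts and changed by 6.29 with LPS and −2.03 at 32 µM on the log2 scale (edgeR adjusted p = 0.00230 at 32 µM). Gm14023 opposite Il1a had at most 43 counts. Both were far below their cytokine genes in the LPS libraries. In DMSO Gm14023 had at least 3 counts, more than the 1 count of Il1a per library, so the Il1a ratio to DMSO rests on counts that could include reads of the other strand.

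The IL-36 genes went in opposite directions. Il1f6 had 10.3 and 10.4 CPM in the LPS controls, 7.85 and 9.08 with 3.2 µM, 6.25 and 5.42 with 10 µM and 2.82 and 2.32 with 32 µM. Its log2 fold change was −2.01 ± 0.14 at 32 µM (SE, edgeR adjusted p = 1.95e-04) and −0.83 ± 0.14 at 10 µM (adjusted p = 0.0294). The 10 µM call was lost in edgeR on the 4 libraries compared (−0.83, adjusted p = 0.0952). It was also lost when any 1 of these 4 libraries was left out, with log2 fold changes of −0.94 to −0.75, and without both libraries with epithelial transcripts (−0.94).
Il1f9 had 32.8 and 33.5 CPM in the LPS controls, 30.6 and 29.9 with 3.2 µM, 38.8 and 42.2 with 10 µM and 52.1 and 58.6 with 32 µM. Both 32 µM libraries were above the other 8. The log2 fold change was 0.74 ± 0.07 at 32 µM (SE, edgeR adjusted p = 4.33e-04), or 1.67-fold, and 0.29 ± 0.07 at 10 µM, which did not pass the test (adjusted p = 0.103). Without replicate 2 at 32 µM it was 0.65 (edgeR adjusted p = 0.00288). Il1f6 and Il1f9 are neighbors on chromosome 2 on the same strand, with no other annotated family gene between them.

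Il18 had 9.75 and 10.3 CPM in the LPS controls, 8.69 and 8.42 with 3.2 µM, 7.07 and 7.21 with 10 µM and 3.60 and 3.96 with 32 µM. It fell by 1.41 ± 0.08 on the log2 scale at 32 µM (SE, edgeR adjusted p = 3.21e-05). At 10 µM its change of −0.49 ± 0.08 had an adjusted p of 0.0219 in edgeR but was below the fold cutoff. It overlaps Bco2 and Tex12 on the opposite strand, and both had fewer counts than Il18 (at most 205 and 21) and were called lower at 32 µM too, by −1.01 and −2.72.
Il33 had 29 and 22 counts in the LPS controls, 5 and 15 with 3.2 µM, 7 and 2 with 10 µM and 1 in each library at 32 µM. Over both libraries the level at 32 µM was 23.0-fold lower, with an exact counting interval of 6.06 to 195. The edgeR call (adjusted p = 0.0211) was lost when any 1 of the 4 libraries was left out, with log2 fold changes of −4.42 to −4.31 against −4.37 as fitted to all libraries. DESeq2 gave Il33 no adjusted p at 32 µM and so did not call it.

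Among the inhibitors, Il1rn had 2286 and 2241 CPM in the LPS controls, 2002 and 2001 with 3.2 µM, 1443 and 1376 with 10 µM and 873 and 841 with 32 µM. Its log2 fold change was −0.68 ± 0.04 at 10 µM (SE, edgeR adjusted p = 3.48e-04) and −1.40 ± 0.04 at 32 µM (adjusted p = 1.76e-06). The antagonist transcript was thus lower alongside those of its agonists.
Il18bp had 2.11 and 2.32 CPM in the LPS controls, 1.90 and 1.90 with 3.2 µM, 1.63 and 1.73 with 10 µM and 1.29 and 1.53 with 32 µM. Its log2 fold change at 32 µM was −0.66 ± 0.17 (SE, edgeR adjusted p = 0.0466). The call was lost in DESeq2 (adjusted p = 0.170), in edgeR without a count filter (adjusted p = 0.142) and in edgeR on the 4 libraries compared (adjusted p = 0.123). It was also lost when any 1 of the 4 libraries was left out in edgeR (log2 fold changes of −0.78 to −0.54). The overlapping Numa1 did not pass the test at 32 µM (log2 fold change 0.19, edgeR adjusted p = 0.192).
Il1rap, the shared receptor chain, had 26.2 and 24.5 CPM with 3.2 µM, 21.0 and 24.0 with 10 µM and 18.1 and 20.4 with 32 µM. Its log2 fold change at 32 µM was −0.35 with a 95% confidence interval of −0.58 to −0.13 (edgeR adjusted p = 0.0612), so it was not called at any dose.

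**Figure D2:**
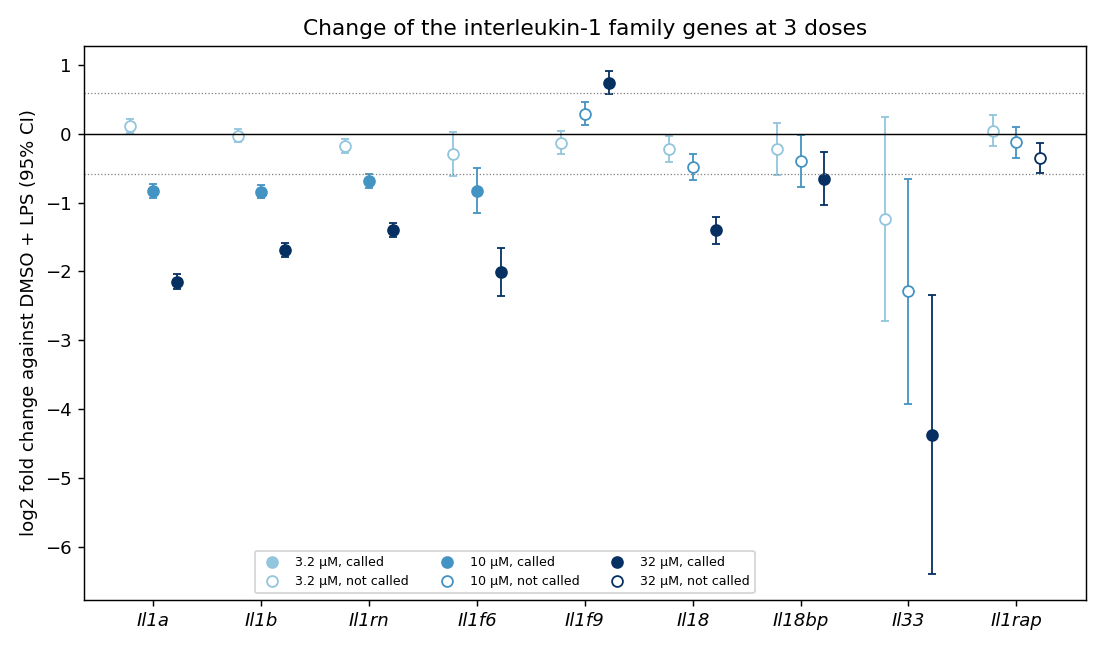
Log2 fold change of each gene against DMSO + LPS at 3.2, 10 and 32 µM, with 95% confidence intervals from edgeR. Filled points were called and open points were not, and dotted lines mark the 1.5-fold cutoff. At 32 µM the values ran from −4.37 for Il33, which rests on 2 counts at that dose, to 0.74 for Il1f9.

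Neighboring doses were also compared directly. Between 10 and 32 µM, 5 genes were lower at the higher dose (1.15% of all tested genes) and 0 higher (0.169% of all tested genes). These were Il1a (−1.32 ± 0.05, SE, on the log2 scale), Il1f6 (−1.18 ± 0.14), Il18 (−0.92 ± 0.08), Il1b (−0.85 ± 0.04) and Il1rn (−0.72 ± 0.04). The Il1f6 call was lost without replicate 2 at 32 µM (−1.05, edgeR adjusted p = 0.0504) and without both libraries with epithelial transcripts (−1.07, adjusted p = 0.0823). Il1f9 differed by 0.45 ± 0.07 (edgeR adjusted p = 0.0161), below the fold cutoff.
Between 3.2 and 10 µM, 2 genes were lower at 10 µM (0.183% of all tested genes) and 0 higher (0.0706% of all tested genes). Il1a differed by −0.95 ± 0.05 (SE) and Il1b by −0.81 ± 0.04 on the log2 scale. Il1rn (−0.51 ± 0.04, edgeR adjusted p = 0.00311) and Il1f9 (0.42 ± 0.07, adjusted p = 0.0494) passed the p threshold but not the fold cutoff. Fitted on only the 4 libraries compared, edgeR called 1 family gene between 10 and 32 µM and 0 between 3.2 and 10 µM. Over all tested genes these fits called 5 and 0.

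To see how far the transcripts returned toward the resting state, 32 µM + LPS was set against DMSO. Here 6 genes were called higher (13.8% of all tested genes) and 1 lower (13.3% of all tested genes). Il1a, Il1f6 and Il1f9, among the 6, could again be tested only through LPS libraries. The median log2 fold change was 3.25, the value of Il33, which had 2 counts against 0. It was 2.30, that of Il1rn, with the genes absent from DMSO at their bound, against 0.02 over all tested genes. Il1b was still 8.69 ± 0.06 above DMSO on the log2 scale (SE, edgeR adjusted p = 1.37e-10), Il1f9 was 9.78 ± 0.14 above it and Il1rn 2.30 ± 0.04. Il1a had 8438 counts against 2, a ratio of 5179 with an exact counting interval of 1433 to 42772, and Il1f6 was at least 99.4-fold higher.
Il18 was the gene called lower, at 3.60 and 3.96 CPM against 5.76 and 5.73 in DMSO, a log2 fold change of −0.60 ± 0.08 (SE, edgeR adjusted p = 5.12e-04). Without replicate 1 at 32 µM the change was −0.54, short of the fold cutoff (edgeR adjusted p = 0.00439). Il18bp remained higher than in DMSO, by 1.17 ± 0.17 (SE, adjusted p = 7.54e-04), and Il1rap and Il33 were not called.

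The part of the LPS rise present at each dose was expressed as a percentage of the difference in CPM between DMSO + LPS and DMSO. At 32 µM it was 22.5 ± 0.67% for Il1a (SD, n = 2), 24.8 ± 3.4% for Il1f6, 30.9 ± 0.42% for Il1b, 32.7 ± 1.1% for Il1rn and 49.2 ± 11% for Il18bp. At 10 µM the shares of these genes were, in the same order, 56.1 ± 1.3%, 56.3 ± 5.7%, 55.8 ± 2.6%, 59.1 ± 2.3% and 66.3 ± 4.1%. Il1a, Il1b and Il1f6 differed by less than their spread at 10 µM, where both Il18bp libraries lay above those of the other 4 genes, and at 32 µM the Il1a libraries lay below those of Il1b.
At 3.2 µM the shares were 108 ± 3.6% for Il1a, 98.1 ± 1.2% for Il1b, 87.5 ± 0.053% for Il1rn, 81.7 ± 8.4% for Il1f6 and 79.9 ± 0.093% for Il18bp. Il33, with few counts, had shares of 41.8 ± 28% at 3.2 µM, 30.9% and 9.08% in the libraries at 10 µM and 4.36 ± 0.24% at 32 µM. Il18 went from 65.9 ± 4.5% at 3.2 µM and 32.7 ± 2.4% at 10 µM to −46.1 ± 6.0% at 32 µM, that is, below the resting level. With libraries scaled by total counts alone the Il18 shares were 55.6%, 16.7% and −84.1%. Il1f9 went from 91.3 ± 1.5% at 3.2 µM to 122 ± 7.3% at 10 µM and 167 ± 14% at 32 µM.

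**Figure D3:**
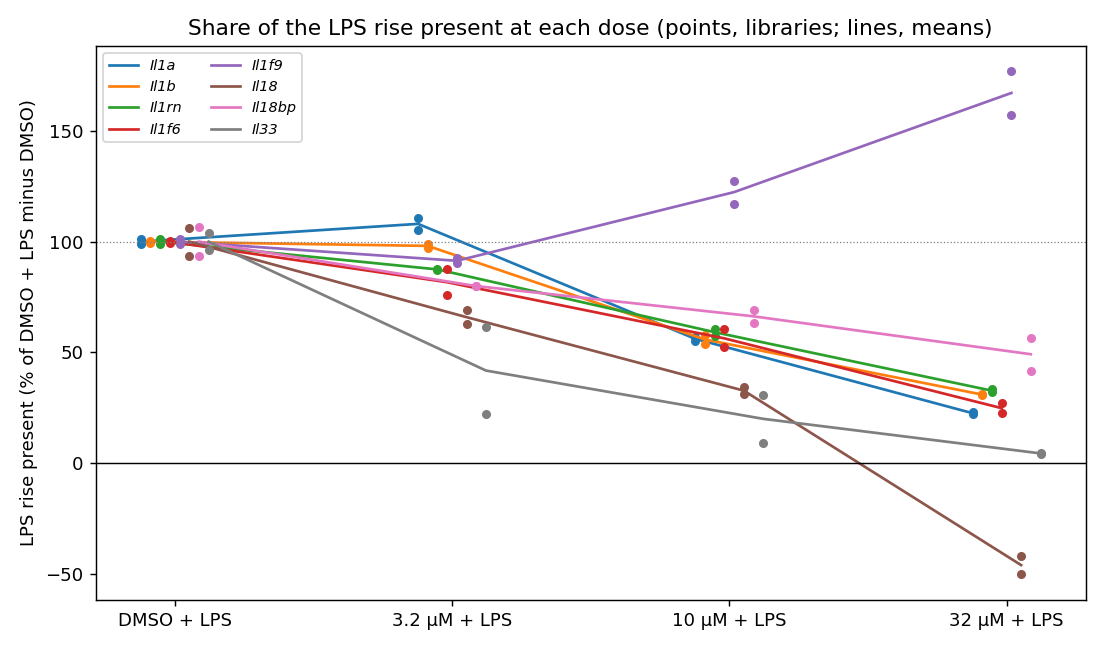
Share of the LPS rise (percent of the CPM difference between DMSO + LPS and DMSO) in each LPS library (points) and the condition means (lines, n = 2) for the 8 genes called higher with LPS. At 32 µM Il1f9 was at 167%, Il18 at −46.1% and the other 6 genes between 4.36% and 49.2%.

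Ratios of read counts within a library compare members without any scaling between libraries. They were tested across the 4 LPS conditions by an exact permutation test over all 105 ways to split the 8 libraries into pairs, with adjustment over the 4 ratios. The Il1b to Il1rn ratio, agonist to antagonist, was 0.00649 and 0.00672 in DMSO and 0.669 and 0.688 in the LPS controls. It was 0.745 and 0.759 with 3.2 µM, 0.614 and 0.603 with 10 µM and 0.550 and 0.559 with 32 µM (exact permutation p = 0.00952, the smallest these splits can give, adjusted p = 0.0254). No conditions overlapped, and the ratio at 32 µM remained far above that in DMSO.
The Il1a to Il1b ratio was 0.263 and 0.255 in the LPS controls, 0.295 and 0.276 with 3.2 µM, 0.256 and 0.265 with 10 µM and 0.191 and 0.186 with 32 µM (exact permutation p = 0.0190, adjusted p = 0.0254). The 10 µM libraries overlapped the LPS control and the 32 µM libraries were lower than the rest.
The Il18 to Il18bp ratio, ligand to binding protein, was 9.69 and 8.78 in DMSO, 4.61 and 4.43 in the LPS controls, 4.58 and 4.44 with 3.2 µM, 4.33 and 4.18 with 10 µM and 2.79 and 2.59 with 32 µM (exact permutation p = 0.0286, adjusted p = 0.0286). The overlap of Il18bp with Numa1 bears on this ratio as well. The Il1b to Il18 ratio was 157 and 150 in the LPS controls, 172 and 180 with 3.2 µM, 125 and 115 with 10 µM and 133 and 119 with 32 µM (exact permutation p = 0.0190, adjusted p = 0.0254), so that 10 and 32 µM overlapped.

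**Figure D4:**
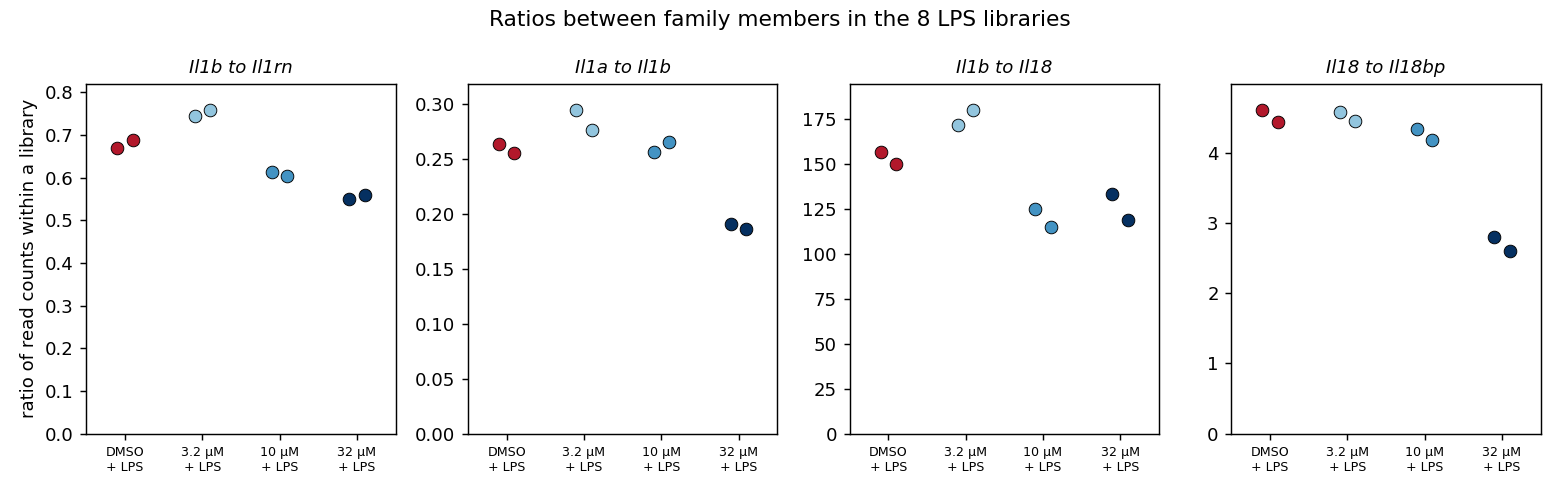
Ratios of read counts between family members in each of the 8 LPS libraries, on linear axes that start at 0 and differ between panels, with 2 points per condition. For Il18 to Il18bp the 32 µM points ran from 2.59 to 2.79, and those of the other 6 libraries from 4.18 to 4.61.

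Other genes of the pathway were taken from fixed lists. Of the remaining ligand genes, Il36b, Il36rn (the IL-36 receptor antagonist) and Il1f10, none exceeded 1 count in any library. Of 9 receptor genes, 5 could be tested. With LPS, 2 were called lower (13.6% of all tested genes) and 0 higher (14.6% of all tested genes), and the median log2 fold change of the 5 was −0.87. Il1rl1, the IL-33 receptor, fell from 29.1 and 31.3 CPM to 11.1 and 10.3 (log2 fold change −1.49 ± 0.08, SE, edgeR adjusted p = 2.20e-06), and Il18rap, a chain of the IL-18 receptor, from 10.6 and 9.67 to 5.68 and 5.45 (−0.87 ± 0.14, adjusted p = 0.00106). At 32 µM 0 of the 5 were called, where 4.17% of all tested genes were called in either direction, so that a list this short would hold few calls at that share. Il1r1, the signaling receptor for IL-1, had 1 to 18 counts per library.

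Of 16 adaptor and kinase genes, 15 could be tested, and 3 were called higher with LPS and 0 lower, with a median log2 fold change of 0.16. The number called higher is near the 14.6% of all tested genes. Irak2, a kinase of the receptor complex, rose by 2.25 ± 0.04 on the log2 scale (SE), Irak3, an inhibitory member of the same kinase family, by 1.30 ± 0.05, and the adaptor Myd88 by 0.75 ± 0.08. The Myd88 call was lost when libraries were scaled by total counts alone (0.54). At 32 µM 0 of the 15 were called (4.17% of all tested genes), with a median of −0.03. Irak2 (−0.38 ± 0.04, SE, edgeR adjusted p = 5.17e-04), Irak3 (−0.39 ± 0.05, adjusted p = 0.00236) and Myd88 (−0.35 ± 0.08, adjusted p = 0.0260) passed the p threshold at that dose but not the fold cutoff.

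Of 17 genes for precursor processing and release, 13 could be tested, and 5 were called higher (14.6% of all tested genes) and 2 lower (13.6% of all tested genes) with LPS, with a median log2 fold change of 0.55. Casp4, the caspase that senses intracellular LPS, rose by 3.57 ± 0.05 (SE), the inflammasome sensor Nlrp3 by 3.09 ± 0.05 and the pore-forming Gsdmd by 1.14 ± 0.07 on the log2 scale, and Gsdme, another gasdermin, fell by 1.23 ± 0.11. At 32 µM 1 of the 13 was called, in the higher direction (1.26% of all tested genes), with a median of −0.01. This was Gsdme, with 4.49 and 3.92 CPM in the LPS controls and 6.15 and 6.88 CPM with 32 µM (log2 fold change 0.63 ± 0.11, SE, edgeR adjusted p = 0.0107). The Gsdme call was lost in edgeR on the 4 libraries compared (0.62, adjusted p = 0.0557). It was also gone once replicate 2 of the LPS controls (0.54) or of the 32 µM group (0.55) was left out.
Nlrp3 had 582 and 568 CPM in the LPS controls and 538 and 547 CPM with 32 µM, a log2 fold change of −0.08 ± 0.05 (SE, edgeR adjusted p = 0.377). Casp4 (−0.47 ± 0.05, adjusted p = 3.78e-04), Casp8, a caspase of cell death signaling (−0.42 ± 0.04, adjusted p = 4.59e-04), and Gsdmd (−0.57 ± 0.07, adjusted p = 0.00197) passed the p threshold in edgeR but not the fold cutoff. Pycard, which encodes the inflammasome adaptor ASC, had 1 to 5 counts in 9 libraries and 33 in replicate 1 at 10 µM, the library with the epithelial transcripts, and could not be tested.

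**Figure D5:**
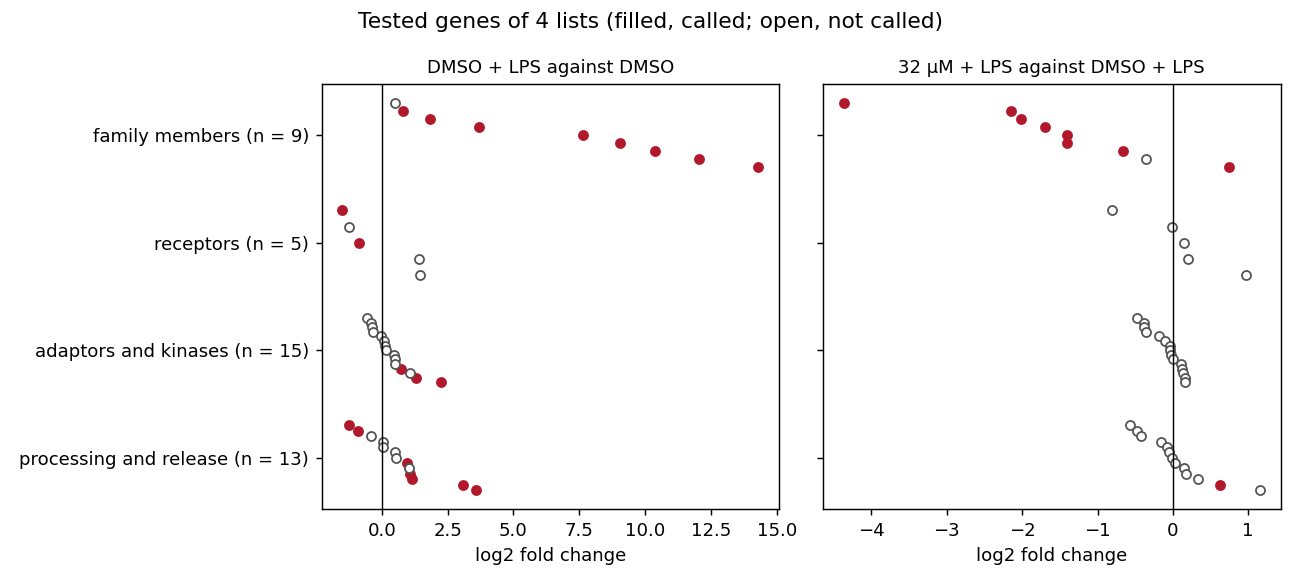
Log2 fold change of the tested family genes and of the tested genes of the 3 pathway lists, for LPS against DMSO (left) and 32 µM against DMSO + LPS (right, on another scale). At 32 µM 8 of 9 family genes were called (filled), 0 of 5 receptor genes, 0 of 15 adaptor and kinase genes and 1 of 13 processing genes, against 4.17% of all tested genes, a share at which lists of these 3 sizes would hold few or no calls. The LPS values of Il1f6 and Il33, absent from DMSO, depend on the fit's prior count.

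For Il1a, Il1b, Il1rn and Il18, the genes with the nearest profiles over the 10 libraries, DMSO included, were found by the root mean square distance of centered log2 CPM among 9562 genes. They describe shared profiles over libraries that share conditions and depth, and the 10 points are not independent. Il1a was nearest to Il6 (distance 0.35, Pearson r = 0.999), Nos2 and Csf3. Il1b was nearest to Il1f6 (distance 0.25, r = 0.999), then Saa3 and Mmp13. Il1f6 had 0 counts in DMSO and Il1a 1 per library, so their distances depend on the 0.01 CPM added before taking logs. A near profile over all 10 libraries did not mean a like change with **1**, since Mmp13 had log2 fold changes of 0.00 at 10 µM and −0.57 at 32 µM (edgeR adjusted p = 0.00965, below the fold cutoff) and Saa3 of −0.52 (adjusted p = 0.215) and −1.07 (adjusted p = 0.00497), against −0.84 and −1.69 for Il1b. Il1rn was nearest to Usp18 (distance 0.10, r = 0.997), Odc1 and Ifi202b. Il18 was nearest to Sdc3 (distance 0.13, r = 0.963), Il15ra and Spp1.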

How the data were processed

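The authors deposited raw read counts per Ensembl gene for 10 libraries, not normalized. The libraries were poly(A)-selected and stranded, sequenced on 1 lane. The submitters' processing notes name Trimmomatic, FastQC, STAR, DESeq2 and mm10. The counting tool, strand setting and annotation release are not given in the sources used here. Intervals on counts (95%, exact) and bounds at 3 counts per group cover counting error only.

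Genes passing filterByExpr (minimum count 10) were scaled by TMM and fitted in edgeR 4.0.16 (R 4.3.3) with 1 mean per condition over all 10 libraries, 5 residual degrees of freedom and a common biological coefficient of variation of 0.128. Symbols and exon lengths came from GENCODE M21. Likeness used log2 (CPM + 0.01) and a minimum mean of 5 CPM, and was set to cover Il1a, Il1b, Il1rn, Il18 and Il18bp, of which Il18bp was below that mean. It was not run for the other members. The 9 genes are described in every contrast. From each other list up to 4 called genes with the largest change for LPS and for 32 µM are named, and Pycard always. Il1r1 and the values of listed genes outside this rule were added after their values were seen. Members and lists were chosen with earlier results of these data known. Steps were tested on simulated data. Alternatives were other scalings, other count filters, DESeq2 1.42.0, the 4 libraries compared, the replicate number as a block, and leaving out libraries.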

Additional observations from a re-analysis of the deposited data

How the results depend on the processing

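Of 81 counts of family genes called under the alternatives, 79 were within 1.5 times the reported count, or 0 where 0 was reported, as always at 3.2 µM. The exceptions came from edgeR on the 4 libraries compared, with 1 gene between 32 and 10 µM and 0 between 10 and 3.2 µM, where fewer samples set the spread. The filter at a mean of 5 CPM left out Il18bp and Il33 in advance. DESeq2 gave no adjusted p for Il33 in some comparisons, among them 32 µM against DMSO + LPS, but it called Il33 higher for LPS against DMSO. No gene reversed direction past the threshold under the alternatives run. Over all tested genes, a mean of at least 5 CPM gave 2635 calls for LPS and 2541 for 32 µM against DMSO. At 10 µM the count was 41 on the 4 libraries, 52 and 59 without either LPS control, 227 without replicate 2 at 10 µM and 45 without both libraries holding epithelial transcripts. Between 32 and 10 µM it was 5 on the 4 libraries and 121 without those same 2. Between 10 and 3.2 µM it ran from 0 on the 4 libraries, through 4 without those 2, to 66 without replicate 2 at 10 µM. Leaving these 2 libraries out together was chosen after seeing the data. Scaling by total counts alone moved the median of all genes by −0.20 for LPS against DMSO and lowered the Il18 shares of the LPS rise. Correlations of replicate differences ran from 0.21 to 0.71 in the 6 pairs of conditions without the LPS controls and from −0.23 to −0.091 in the 4 pairs with them, so the numbers were not taken as pairing all samples. With the replicate block the numbers of family genes called were as reported, 8 for LPS, 8 at 32 µM, 4 at 10 µM, 5 between 32 and 10 µM, 2 between 10 and 3.2 µM and 7 for 32 µM against DMSO. Over all tested genes the block gave, in the same order, 4089, 614, 173, 225, 43 and 3900 calls. Those reported without it were 3989, 591, 122, 187, 36 and 3840. Levels under 1 CPM limit Il33, and a handful of counts limits Pycard and most receptors.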
